A study of Mus musculus and blank sample with 191 samples.

Results

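Cytosolic sulfotransferases (SULTs) move a sulfonate group from the donor PAPS onto hydroxyl or amine groups of steroids, phenols and catecholamines, which makes them more soluble and usually inactive. PAPS is made from inorganic sulfate and ATP by the PAPS synthases, and steroid sulfatase removes the group again, so that conjugation and deconjugation can take place in the same tissue. In the uterus these enzymes act on estrogens and on catecholamines. Described here are 8 genes of this system out of 19962 targets of the panel: the sulfotransferases Sult1d1, Sult1a1, Sult1e1, Sult1c2 and Sult2b1, the PAPS synthases Papss1 and Papss2, and the steroid sulfatase gene Sts. They were taken by name, and Sult1d1 was picked because its values were low in the mutant mice in both compartments. Its difference between genotypes is therefore given as a description, with no test. Of the 8 genes, 7 were among the 14881 targets that the authors kept after their filter on low values, and Sult1e1 was not.

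RNA was measured with the GeoMx mouse Whole Transcriptome Atlas, in which each target is read by a sequenced probe over a chosen region of a tissue section. Thra1PV/+ mice (PV/N in the labels) carry 1 copy of a mutant thyroid hormone receptor alpha 1 in all cells, a dominant negative receptor, and WT mice (N/N) carry none. The tissue came as endometrial cores in arrays, and according to the study's methods mice were matched to metestrus. Regions of epithelium or stroma had been chosen by their morphology and by staining for cytokeratin and smooth muscle actin. According to the study's methods they were taken from mucosa, glands and stroma. The sample labels give mucosa and glands alike as epithelium, so epithelium here pools both. The paper also reports fewer endometrial glands in the mutant mice. Of the 2 collection plates, the first was used: 31 regions of Thra1PV/+ epithelium from 6 mice, 29 of WT epithelium from 8 mice, 21 of Thra1PV/+ stroma from 6 mice and 14 of WT stroma from 7 mice. The Thra1PV/+ mice were 2.4 to 6.3 months old and the WT mice 4.0 to 9.0 months. Counts were summed per mouse and compartment, since the mouse is the replicate, and mice are named here by genotype and a number. The sample labels name 1 WT mouse more than the design text of the series, and the labels were followed.

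The sums held 61691 to 13492532 counts in epithelium and 85336 to 5195249 in stroma. The lowest in both belonged to PV2, a mouse with 1 region per compartment, in which 6 of the 8 genes had 3 counts or fewer in epithelium and 5 of 8 in stroma. The negative probes, which match no mouse transcript, gave the background of each region. All 95 first-plate regions fell on the side of their labelled compartment by a score of 12 columnar epithelial markers minus 10 fibroblast markers. On the second plate 55 of 94 regions did, and 39 fell on the other side, so that plate serves only as an alternative. Levels below are CPM, counts scaled by the TMM-adjusted library size. They are not compared between genes, because each target has its own probe.

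Sult1d1 encodes a sulfotransferase that conjugates catecholamines such as dopamine and has only a pseudogene as its human counterpart. It lies on mouse chromosome 5 at 87554650-87569006 on the minus strand (GRCm38.p6, RefSeq gene 53315), next to Sult1e1 at 87575968-87591611 on the same strand, with 6961 bases between them. Sult1e1 encodes the estrogen sulfotransferase. In these libraries Sult1d1 was far above the negative probes in epithelium and Sult1e1 was near them everywhere. Each has its own probe, so these values do not show a difference in expression between the neighbours. The 250 bases before the start site of each gene, from RefSeq on GRCm38.p6, are shown 5′ to 3′ on the strand of the gene because they are the flanks of these neighbours. Capitals mark AGGTCA or its reverse complement TGACCT, the core that nuclear receptors read.
Sult1d1, chr5:87569007-87569256: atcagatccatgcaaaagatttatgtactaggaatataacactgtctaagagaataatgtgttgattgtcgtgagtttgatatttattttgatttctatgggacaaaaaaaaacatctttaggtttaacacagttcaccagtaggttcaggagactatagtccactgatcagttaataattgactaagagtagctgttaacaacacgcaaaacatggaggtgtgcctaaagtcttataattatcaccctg
Sult1e1, chr5:87591612-87591861: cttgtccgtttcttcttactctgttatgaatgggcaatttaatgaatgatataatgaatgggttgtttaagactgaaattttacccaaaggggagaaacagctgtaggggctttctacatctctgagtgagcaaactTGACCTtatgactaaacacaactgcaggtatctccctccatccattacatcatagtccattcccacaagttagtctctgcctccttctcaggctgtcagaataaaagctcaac
The core AGGTCA was absent from the Sult1d1 window on both strands and present once in the Sult1e1 window. It occurred in 14.0% of all 32851 windows of this length. The steroid receptor core TGTTCT was in neither window, against 16.1% of all windows, and the KLF-type letters CCACCC were in neither, against 28.1%. The G and C content was 34.0% for Sult1d1 and 40.8% for Sult1e1. Such matches describe letters only.

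In WT epithelium Sult1d1 reached 717 CPM in WT1, 510 in WT2, 365 in WT3, 856 in WT4, 295 in WT5, 738 in WT6, 1004 in WT7 and 771 in WT8. In Thra1PV/+ epithelium it was 192 CPM in PV1, 195 in PV2, 39.9 in PV3, 249 in PV4, 98.8 in PV5 and 117 in PV6. All 6 mutant mice were below all 8 WT mice. The highest mutant mouse, PV4, stood close under the lowest WT mouse, WT5. The mean log2 level of Sult1d1 was 7.01 ± 0.95 (SD, n = 6) in Thra1PV/+ and 9.26 ± 0.62 (SD, n = 8) in WT epithelium, and the fitted log2 fold change was -2.15 ± 0.38 (SE). Over all 14881 targets, 0.0672% had every mutant mouse below every WT mouse in epithelium. Since the gene was chosen for this contrast, nothing is read from that share.

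Sult1d1 in WT stroma was 89.9 CPM in WT1, 30.3 in WT2, 20.2 in WT3, 69.7 in WT4, 47.2 in WT5, 57.6 in WT7 and 27.5 in WT8. In Thra1PV/+ stroma it was 21.6 CPM in PV1, 10.2 in PV2, 15.6 in PV3, 11.3 in PV4, 11.0 in PV5 and 9.69 in PV6. The groups touched, since PV1 was above WT3, and the other 5 mutant mice were below every WT mouse. Complete separation with lower mutant values was seen for 0.0269% of all targets in stroma. The mean log2 level of Sult1d1 was 3.76 ± 0.42 (SD, n = 6) against 5.47 ± 0.77 (SD, n = 7), with a fitted log2 fold change of -1.76 ± 0.34 (SE). This value rested on the first plate: it was -0.37 ± 0.70 (SE) with both plates summed and -0.20 ± 0.83 (SE) on the second plate alone. Mutant stroma was near background, at 0.844 to 3.82 times the negative probes, and the value of PV2 rested on 1 count, the lowest value the deposited table holds. WT stroma was at 3.37 to 14.8 times the negative probes, WT epithelium at 45.6 to 188 times and mutant epithelium at 5.29 to 56.1 times.

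**Figure D1:**
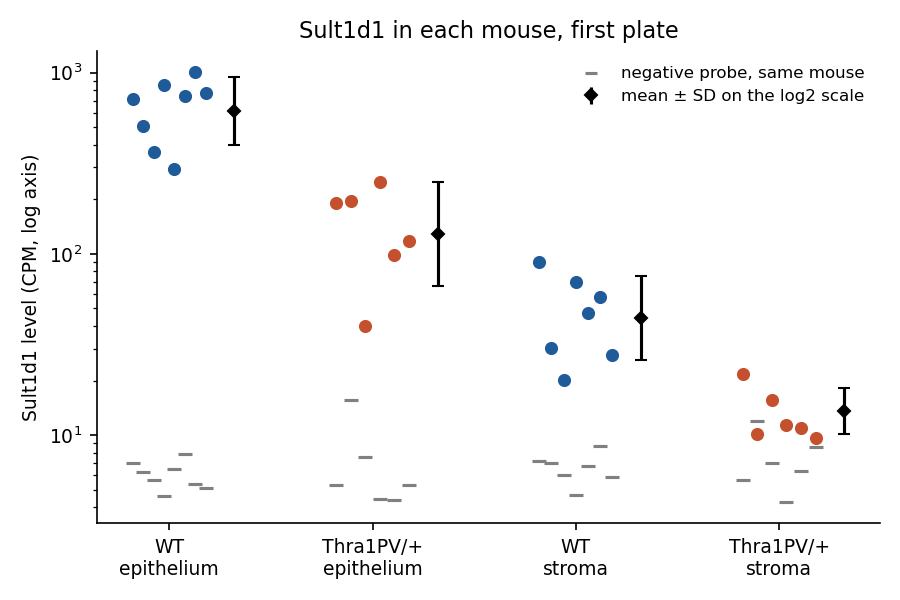
Level of Sult1d1 in each mouse (points, CPM on a log axis) by genotype and compartment, with the mean ± SD on the log2 scale (diamonds) and the level of the negative probes in the same mouse (grey dashes). The 6 Thra1PV/+ mice lie between 39.9 and 249 CPM in epithelium, all below the 8 WT mice at 295 to 1004 CPM, and Thra1PV/+ stroma comes down to the negative probes.

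In PV1 and PV4 the sums mixed regions with much and with little Sult1d1, and in PV3, PV5 and PV6 all regions were low. In PV4, whose 8 epithelial regions came from 1 uterus, 4 regions held 36.0, 41.5, 43.5 and 55.4 CPM and the other 4 held 404, 441, 542 and 563 CPM, before TMM scaling. No region of this mouse lay between. In PV1, 9 of 15 regions lay between 25.7 and 108 CPM and 6 between 292 and 612 CPM. PV3 had regions at 41.1 and 43.7 CPM, PV5 at 39.8 and 101 CPM, and PV6 had 3 at 76.1 to 101 CPM, while the single region of PV2 held 211 CPM. The upper regions of PV1 and PV4 were within the range of WT regions, which ran from 70.5 to 1179 CPM. Among WT mice with 3 or more regions WT5 had the widest gap, with 3 regions at 70.5 to 97.8 CPM and 3 at 433 to 497 CPM. The 2 regions of WT8 stood further apart, at 114 and 1083 CPM. Among mice with 3 or more epithelial regions, the highest region exceeded the lowest by 1.95 to 7.05 times in 6 WT mice and by 1.33 to 23.8 times in 3 mutant mice. Of 31 Thra1PV/+ regions, 17 were under 100 CPM and 11 over 200 CPM. Of 29 WT regions, 3 were under 100 CPM and 23 over 200 CPM. These limits were set after the values were seen, and regions of 1 mouse are not independent. Which of these regions were mucosa and which were glands is not given by the labels.

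**Figure D2:**
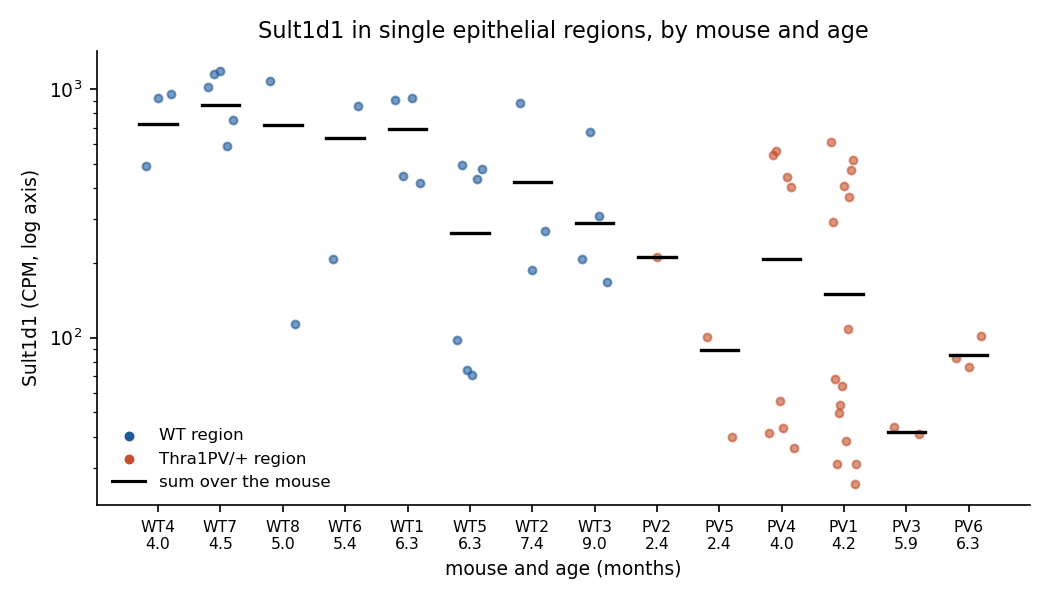
Sult1d1 in each epithelial region of the first plate (points, CPM on a log axis, before TMM scaling), with mice ordered by age within genotype and the value of the summed counts of each mouse as a bar. PV4 and PV1 each show a lower and an upper set of regions, the upper ones at 404 to 563 and 292 to 612 CPM.

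Within the epithelium, Sult1d1 went with gland, endothelial and smooth muscle markers and against columnar markers from region to region. With the mean of each mouse taken off, the log2 value of Sult1d1 correlated with the mean of 7 uterine gland markers (Foxa2, which specifies endometrial glands, is the best known) at r = 0.68 over 29 WT regions and r = 0.75 over 31 mutant regions. Against the mean of 12 columnar markers, such as the keratins Krt8 and Krt18 and the junction gene Cldn4, r was -0.80 in WT and -0.88 in mutant regions. Against 5 squamous markers r was -0.23 in WT and -0.82 in mutant regions. With endothelial markers r was 0.64 in WT and 0.60 in mutant regions, with smooth muscle markers 0.51 and 0.49, and with fibroblast markers -0.11 and 0.57, so the gland list was not alone in following Sult1d1. These are descriptions over regions that share mice, libraries and depth, on log2 values of the Q3-scaled table. Both genotypes therefore held regions low in Sult1d1 at the high end of the columnar score.

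**Figure D3:**
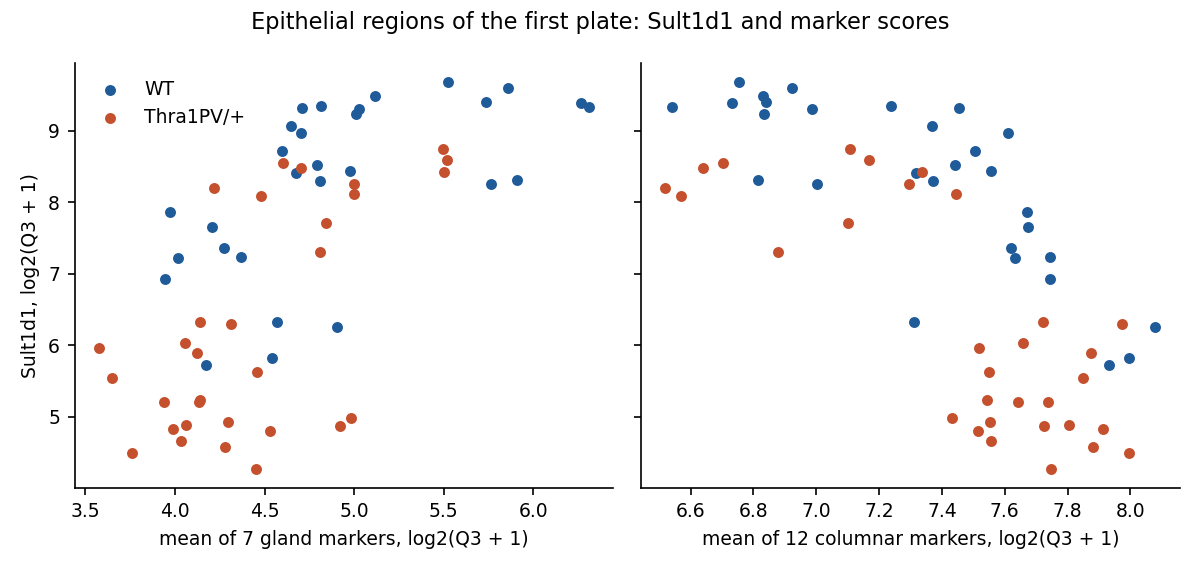
Sult1d1 (log2 of the Q3-scaled value + 1) in each epithelial region of the first plate against the mean of 7 gland markers (left) and of 12 columnar markers (right), with 29 WT and 31 Thra1PV/+ regions. Sult1d1 tended to be higher at a higher gland score and lower at a higher columnar score in both genotypes. Single regions went the other way, such as those of PV3, with Sult1d1 at 4.979 and 4.879 and gland scores of 4.985 and 4.919. The median region was at 8.43 in WT and 5.89 in Thra1PV/+.

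None of the 14881 targets passed between genotypes in the epithelial sums (0.0% called), so no marker gene did either. Before adjustment 4 of 7 gland and 5 of 10 fibroblast markers were lower in Thra1PV/+ (edgeR p under 0.05), beside 3.8% of all targets. By the same limit 4 of 5 squamous and 2 of 12 columnar markers were higher, beside 657 of the 14881 targets. Among markers in the filtered table, none of these 4 lists was under this limit in the opposite direction. In the fit without a gene filter the listed gland marker Lif was higher in Thra1PV/+ epithelium, at 0.97 ± 0.42 (log2, SE). Its edgeR p was 0.0323 before adjustment and 0.663 after it. The summed levels of the 4 lists overlapped. Of 10 listed gland markers 7 were in the filtered table, and 6 of these had lower values in Thra1PV/+ epithelium, with a median log2 fold change of -0.87, and their summed level was 385 to 2422 CPM in WT and 455 to 867 CPM in mutant mice. The 5 squamous markers in the filtered table, of 16 listed, had higher values in mutant epithelium, summing to 51.9 to 116 CPM in WT and 85.8 to 447 CPM in mutant mice. A marker high only in mutant regions could pass the filter through them, so nothing is read from this shared direction. In the fit without a gene filter the 16 listed squamous markers ran from -0.29 to 2.11 (log2), with values on both sides. Of 12 columnar markers, 8 had higher and 4 lower values, and their sum was 3157 to 7755 CPM in WT and 2443 to 8750.5 CPM in mutant epithelium. Of 10 fibroblast markers, 9 had lower values, with sums of 701 to 1991 CPM in WT and 489 to 1637 CPM in mutant mice. Of 8 endothelial markers, 7 had lower values, 3 of them with an edgeR p under 0.05 before adjustment. Their sums were 117 to 226 CPM in WT and 102 to 217 CPM in mutant mice. Of 8 smooth muscle markers, 3 had lower and 5 higher values, with 1 of the lower ones under that limit. Per 1000 CPM of summed columnar markers, Sult1d1 was 43.6 to 227 CPM in WT and 8.27 to 79.9 CPM in mutant epithelium, and these ranges overlapped. With the gland score of each mouse as a covariate the log2 fold change of Sult1d1 in epithelium was -1.95 ± 0.45 (SE), and with the columnar score it was -2.17 ± 0.41 (SE). Since Sult1d1 ran against the columnar score from region to region, that fit and the ratio to columnar markers need not follow the cells rich in Sult1d1. In such tissue regions, fewer cells that express a gene and less RNA in each such cell cannot be told apart.

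Age differed between the genotypes, and in epithelium Sult1d1 was lower in the older WT mice. WT stroma was not so ordered, with 89.9 CPM in WT1 at 6.3 months, 27.5 in WT8 at 5.0 months and 20.2 in WT3 at 9.0 months. In WT epithelium the 4 mice aged 4.0 to 5.4 months had 738 to 1004 CPM, and the 4 aged 6.3 to 9.0 months had 295 to 717 CPM. In the mutant mice the youngest pair, both 2.4 months old, had 98.8 and 195 CPM, and the oldest, PV3 at 5.9 and PV6 at 6.3 months, had 39.9 and 117 CPM. Between them, PV4 at 4.0 months had 249 CPM and PV1 at 4.2 months 192 CPM, so mutant epithelium was not ordered by age. No WT mouse was younger than 4.0 months, so the youngest pair had no WT mouse of like age. Restricted to mice aged 4.0 to 6.3 months, the log2 fold change was -2.26 ± 0.46 (SE) in epithelium and -1.98 ± 0.31 (SE) in stroma, and with age as a covariate it was -2.56 ± 0.37 (SE) and -2.06 ± 0.34 (SE).

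The compartment contrast was not used to choose Sult1d1 and was tested in the 13 mice with both compartments, with the mouse as a block. Sult1d1 was higher in epithelium in 13 of 13 mice, by 2.55 times in PV3 to 28.0 times in WT8, and the log2 fold change was 3.59 ± 0.22 (SE; edgeR quasi-likelihood test, Benjamini-Hochberg adjusted p = 6.34e-11). The median ratio was 16.8 in 7 WT and 10.5 in 6 mutant mice. This was the 37th largest epithelial excess among 14881 targets. Expressed the other way, stroma held 3.57% to 16.0% of the epithelial level of Sult1d1 in WT mice, median 5.94%, and 4.54% to 39.2% in mutant mice, median 9.70%. The summed columnar markers, which stroma should lack, were at 3.71% to 12.1% of their epithelial level in WT stroma, median 6.75%, and at 3.46% to 10.3% in mutant stroma, median 7.38%. For Krt8, a keratin of simple epithelium, the medians were 5.53% and 4.60%. The stromal share of Sult1d1 was thus of the size of that of epithelial markers in WT mice, and the part of epithelial RNA in the stromal values was not tested. With the columnar score of the stroma as a covariate, the stromal genotype log2 fold change was -1.74 ± 0.31 (SE). Within epithelium Sult1d1 ran against this score. The score therefore need not follow RNA from epithelium rich in Sult1d1, and nothing is read from this fit.

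Sult1c2 encodes a sulfotransferase of phenolic compounds and was the other sulfotransferase that was higher in epithelium. In WT mice it was higher there in 7 of 7, at 24.9 to 43.6 CPM against 7.65 to 19.2 CPM in stroma. In mutant mice it was higher in 3 of 6, and epithelium ranged from 2.95 CPM in PV5, a value of 2 counts, to 60.1 CPM in PV6. Over both genotypes the log2 fold change was 1.00 ± 0.20 (SE; edgeR adjusted p = 2.34e-04). In stroma Sult1c2 was at 1.30 to 3.24 times the negative probes. Its difference between genotypes was -0.35 ± 0.35 in epithelium and 0.25 ± 0.28 in stroma (log2, SE; edgeR adjusted p = 0.839 and 1.00). The difference of these differences was -0.68 ± 0.38 (log2, SE; edgeR adjusted p = 0.755).

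Sts encodes the steroid sulfatase that frees estrogens and other steroids from their sulfates. It was higher in stroma in 13 of 13 mice. In WT mice it ranged from 27.6 to 93.5 CPM in stroma and from 17.2 to 59.2 CPM in epithelium, and in mutant mice from 33.9 to 183 CPM and from 16.1 to 75.1 CPM. The ranges overlapped across mice, yet within a mouse epithelium held 0.332 to 0.634 times the stromal level. The log2 fold change, epithelium minus stroma, was -1.02 ± 0.09 (SE; edgeR adjusted p = 8.43e-09). Between genotypes Sts differed by -0.19 ± 0.35 in epithelium and 0.22 ± 0.34 in stroma (log2, SE; edgeR adjusted p = 0.939 and 1.00). Its highest stromal values, 183 CPM in PV2 and 112 CPM in PV3, rested on 18 and 79 counts.

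Papss1 and Papss2 encode the enzymes that make PAPS in the cytosol and nucleus. Papss1 was higher in epithelium by 0.43 ± 0.13 (log2, SE; edgeR adjusted p = 0.00657), and it was so in 7 of 7 WT and 2 of 6 mutant mice. The call did not hold on the Q3-scaled values, where limma gave 0.18 and an adjusted p of 0.361. In WT epithelium Papss1 was 42.8 to 69.5 CPM, and in mutant epithelium 15.0 to 79.5 CPM, with the lowest value from 1 count in PV2. All 6 mutant mice were above the WT median of Papss1 in stroma, at 31.7 to 52.8 CPM against 24.6 to 48.9 CPM, and the groups overlapped. The stromal log2 fold change was 0.30 ± 0.19 (SE; edgeR adjusted p = 1.00), and that in epithelium was -0.14 ± 0.21 (SE; edgeR adjusted p = 0.915). For Papss2 the log2 fold change, epithelium minus stroma, was -0.41 ± 0.18 (SE), which did not pass (edgeR adjusted p = 0.0527), and it was higher in epithelium in 3 of 13 mice. Papss2 was at 0.721 to 6.24 times the negative probes. Its genotype differences were 0.19 ± 0.28 in epithelium and -0.06 ± 0.28 in stroma (log2, SE; edgeR adjusted p = 0.914 and 1.00).

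Sult1a1 encodes the main phenol sulfotransferase, which also conjugates estrogens and thyroid hormones. In WT epithelium it was 49.1 CPM in WT1, 17.6 in WT2, 12.0 in WT3, 45.1 in WT4, 28.9 in WT5, 24.3 in WT6, 41.9 in WT7 and 32.1 in WT8. In Thra1PV/+ epithelium Sult1a1 was 14.2 CPM in PV1, 15.0 in PV2, 28.0 in PV3, 12.0 in PV4, 33.9 in PV5 and 9.67 in PV6. The groups overlapped, with 5 of 6 mutant mice under the WT median and 1 under the lowest WT mouse. The log2 fold change was -0.82 ± 0.35 (SE; edgeR p = 0.031 before adjustment over all genes and 0.575 after it), so the difference did not pass. Leaving out each mouse in turn moved it between -1.05 and -0.68. In stroma Sult1a1 was 12.2 to 46.6 CPM in WT and 20.0 to 42.6 CPM in mutant mice, and the genotypes differed by -0.26 ± 0.26 on the log2 scale (SE; edgeR adjusted p = 1.00). Sult1a1 did not pass between compartments either, at -0.23 ± 0.20 (log2, SE; edgeR adjusted p = 0.336), and was higher in epithelium in 5 of 13 mice.

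Sult2b1 encodes the cholesterol and pregnenolone sulfotransferase of the epidermis, and Sult1e1 the estrogen sulfotransferase. Both stayed near the negative probes. Sult2b1 was at 0.956 to 2.90 times their level in epithelium and at 0.360 to 3.38 times in stroma, and Sult1e1 at 0.956 to 2.29 times and 0.753 to 2.43 times. A region was counted as detected where a target was above 2 times its negative-probe value. For Sult1e1 this was so in 6 of 29 WT and 8 of 31 mutant epithelial regions, and in 2 of 14 WT and 4 of 21 mutant stromal regions. For Sult2b1 it was so in 10 of 29 WT and 8 of 31 mutant epithelial regions. For Sult1d1 the count was 29 of 29 and 31 of 31 in epithelium, and 14 of 14 WT and 13 of 21 mutant regions in stroma. In the fit without a gene filter, over 19962 targets, Sult1e1 differed between genotypes by 0.07 ± 0.23 in epithelium and -0.15 ± 0.25 in stroma (log2, SE; edgeR adjusted p = 0.981 and 1.00). Sult2b1 differed by -0.27 ± 0.27 and 0.11 ± 0.35 (log2, SE; edgeR adjusted p = 0.839 and 1.00).

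**Figure D4:**
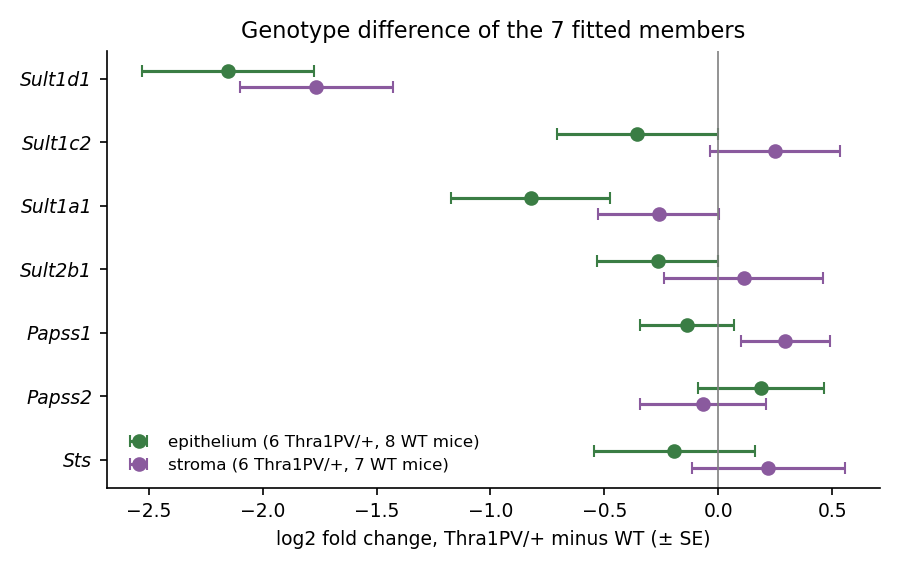
Log2 fold change between Thra1PV/+ and WT (± SE) of the 7 members in the edgeR fit, in epithelium and stroma. Sult1d1 stands at -2.15 and -1.76, and the other members lie between -0.82 and 0.30.

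None of the 14881 targets passed the genotype test in epithelium or stroma, the members included (0.0% called in each; edgeR adjusted p under 0.05). Before adjustment 1223 targets were under 0.05 in epithelium and 524 in stroma, and DESeq2 called 28 and 2. Of the 6 tested members besides Sult1d1, 1 was lower in mutant epithelium before adjustment, Sult1a1, against 3.8% of all targets. In stroma it was 0 of 6, against 1.4%. The median log2 fold change of the 7 fitted members, Sult1d1 included, was -0.27 in epithelium and 0.11 in stroma, beside -0.01 and 0.01 over all targets. No difference between the compartments in the genotype effect passed for the 6 members (edgeR adjusted p = 0.755 to 0.979), nor for any of the 14881 targets (0.0% called), with 1066 (7.16%) under 0.05 before adjustment and 1 called by DESeq2.

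Between compartments 4 of 7 fitted members passed, 3 higher in epithelium and 1 in stroma. This is near the background, since 63.0% of all targets passed, 28.4% higher in epithelium and 34.6% higher in stroma. The split of all targets depended on the scaling: with upper-quartile scaling the median of all targets moved by -0.137 (log2), and 3241 were higher in epithelium and 6443 in stroma, in place of 4229 and 5151. The members' calls are relative to that shift, and Sult1d1 kept 3.46 and Sts -1.15 under it.

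**Figure D5:**
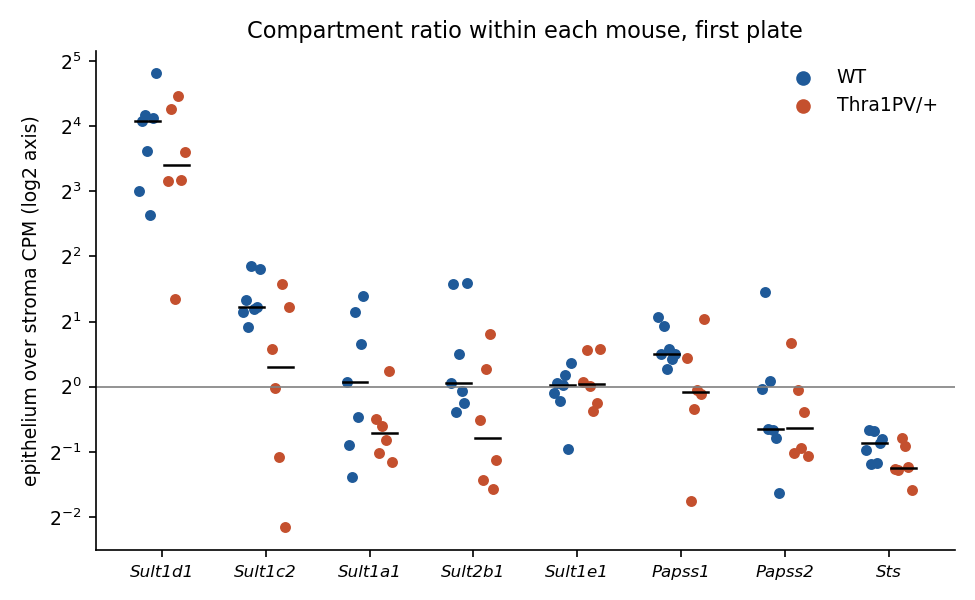
Ratio of the epithelial to the stromal CPM within each of 13 mice for the 8 members (points by genotype, log2 axis, medians as bars). Sult1d1 is above 1 in all 13 mice at 2.55 to 28.0, and Sts is below 1 in all 13 at 0.332 to 0.634.

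The wider system was followed in 6 lists of 115 genes, of which 83 were in the filtered table. None of the 83 passed the edgeR genotype test in epithelium or stroma, with 5 under 0.05 before adjustment in each. Of 16 other cytosolic sulfotransferases listed, 3 were in the filtered table, and all 3 had lower values in mutant epithelium and stroma. Their medians were -0.24 and -0.23 (log2), beside -0.005 and 0.011 over all targets. In the fit without a gene filter, those of this list on the panel ran from -0.80 to 0.12 (log2) in stroma. Between compartments 24 of the 83 were higher in epithelium and 35 in stroma, shares beside 28.4% and 34.6% of all targets. The same shares stand beside the counts of each list that follows, since 63.0% of all targets passed. Values in the following are log2 fold changes, epithelium minus stroma, with SE and edgeR adjusted p.

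Among the genes of sulfate supply, 5 of 7 were higher in epithelium. Slc26a2, a sulfate transporter of the plasma membrane, was at 1.27 ± 0.16 (edgeR adjusted p = 1.49e-06), Bpnt1, a phosphatase that removes the spent donor PAP, at 1.14 ± 0.17 and Slc35b3, which brings PAPS into the Golgi, at 0.32 ± 0.09. Slc26a11, another sulfate transporter, was the 1 gene of this list higher in stroma, at -0.71 ± 0.13. Of the other cytosolic sulfotransferases, Sult5a1 at -1.81 ± 0.22 and Sult2a1, a hydroxysteroid sulfotransferase, at -0.60 ± 0.10 were higher in stroma. Taken with the members, cytosolic sulfotransferases were thus on both sides, with Sult1d1 and Sult1c2 higher in epithelium and these higher in stroma. Sult2a1 was low in both compartments, at a mean log2 CPM of 3.62 in epithelium and 4.23 in stroma.

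Transporters of steroid sulfates and organic anions were split, with 6 of 11 higher in epithelium and 4 in stroma. Slco3a1 was at 1.46 ± 0.19, Abcc3, which exports conjugates, at 1.35 ± 0.22 and Slco4a1 at 1.40 ± 0.29. On the stromal side were Abcg2, an exporter that accepts estrogen sulfates and is abundant in small vessels, at -2.61 ± 0.14 (edgeR adjusted p = 1.47e-11), Slco2b1, which takes up estrone sulfate, at -1.84 ± 0.14 and Slc10a6, the sodium-dependent steroid sulfate carrier, at -0.96 ± 0.14. All 8 endothelial markers were higher in stroma too, and their part in these values was not tested.

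Of 14 other sulfatases and their activating factors, 3 were higher in epithelium and 7 in stroma. Sulf1, which trims heparan sulfate outside cells, was at -2.14 ± 0.12, Arsi at -2.04 ± 0.18 and Arsb, a lysosomal sulfatase, at -1.11 ± 0.13, while Arsj was at 1.45 ± 0.21 and Galns at 0.60 ± 0.14. Of 28 Golgi sulfotransferases, 4 were higher in epithelium and 14 in stroma. Hs6st1, which modifies heparan sulfate, was at 1.80 ± 0.12, Chst8 at 1.45 ± 0.27 and Hs3st3b1 at 1.27 ± 0.17. Tpst1, a tyrosylprotein sulfotransferase, was at -2.17 ± 0.14, Chst14, which modifies dermatan sulfate, at -1.30 ± 0.11 and Ndst3 at -1.02 ± 0.11.

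Of 20 genes of steroid and amine metabolism, 6 were higher in epithelium and 7 in stroma, near the 28.4% and 34.6% of all targets. Ugt1a7c, a glucuronosyltransferase, was at 1.82 ± 0.24, Hsd17b12 at 0.85 ± 0.13 and Hsd17b4, which oxidises estradiol, at 0.48 ± 0.10. Hsd11b2, which inactivates corticosterone, was at -2.79 ± 0.25, Maob, a monoamine oxidase, at -2.09 ± 0.16 and Akr1c14, a hydroxysteroid dehydrogenase, at -1.97 ± 0.16.

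The genes most like Sult1d1 over the 27 sums of the first plate were Ivns1abp (r = 0.938), Slc39a4, a zinc transporter (0.930), Slc25a48 (0.926), Dact2 (0.926) and Lrrc31 (0.920). Ivns1abp stayed first, at r = 0.759, after the mean of each genotype and compartment was taken off, followed by Stx18 (0.731), Degs2, a sphingolipid desaturase (0.726), Chdh, choline dehydrogenase (0.721), and Eaf1 (0.710). Among the first set, the log2 fold change between genotypes in epithelium was -0.91 ± 0.26 for Ivns1abp, -1.32 ± 0.38 for Slc39a4, -1.59 ± 0.47 for Slc25a48, -0.65 ± 0.25 for Dact2 and -1.05 ± 0.26 for Lrrc31, each of which did not pass (edgeR adjusted p = 0.358 to 0.546). The other members were unlike Sult1d1, with r from -0.581 for Sts to 0.476 for Sult1c2. These correlations are descriptions over sums that share mice and libraries.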

How the data were processed

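Regions of uterine endometrium from 14 Thra1PV/+ and WT mice were profiled with the GeoMx Whole Transcriptome Atlas. The authors deposited a table of expected counts per region and target, in which 0 is written as 1, and a table of the same regions scaled by them to the third quartile of each region (Q3, a signal) after a filter on targets near background. Per the submitters' processing notes, R 4.1.2 was used and the build was mm10. The sample labels name 14 animals and the design text of the series 13. Genotype, compartment and age came from the sample labels, and ages are in months as in the study's methods. The members and gene lists were chosen with earlier results of these data known.

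First-plate counts were rounded after summing per mouse and compartment. The row of negative probes, 0.000527% of all counts, was left out of library sizes. Targets of the filtered table were tested with edgeR 4.0.16 (R 4.3.3; TMM, quasi-likelihood, two-sided, Benjamini-Hochberg over 14881 targets, threshold 0.05). Genotype was tested within a compartment over mice. Compartment and its interaction with genotype had the mouse as a block, because both compartments come from the same animal. Levels are CPM, and log2 CPM has a prior count of 2. Marker scores of regions are means of log2(Q3 + 1). Counting error is largest in PV2, whose sums are the smallest, and sums of a few counts carry little precision. The text names the 8 members, up to 3 called genes a direction of each list with the lowest p, and the 5 genes with the highest r with Sult1d1. A gene that this rule names is not reported here. The fit was tested on simulated data. Alternatives were DESeq2 1.42.0, upper-quartile scaling, no gene filter, limma 3.58.1 on Q3 values with pseudocounts of 1 and 0.1, the other plate, subtraction of the negative-probe level, mice with at least 2 regions, age, limma over regions with a random mouse effect, no block, and each mouse left out. Sequences and gene positions are from RefSeq on GRCm38.p6, the same assembly as mm10, which held 7 of the 8 members. Sts was not matched.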

Additional observations from a re-analysis of the deposited data

How the results depend on the processing

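In epithelium the lower value of Sult1d1 in Thra1PV/+ mice kept its direction in 14 of 14 settings other than leaving out a mouse, at -2.56 to -1.95 (log2). This count includes the fits with a marker score as a covariate. It was also kept in 14 of 14 fits with a mouse left out, at -2.40 to -1.95. Sult1d1 was picked for low mutant values on the first plate, so a kept direction in fits to that plate is no independent support. In stroma it ranged from -2.10 to -1.54 with a mouse left out, was -0.37 with both plates summed and -0.20 on the second plate alone, where compartment labels and markers disagree in 39 of 94 regions. The 3 fits with a marker score as a covariate were added after seeing the data. The compartment difference of Sult1d1 was 3.49 to 3.71 with a mouse left out, 3.61 with no replicate block (mouse not a term), and 0.37 on the second plate alone, where it did not pass. Counts of called targets were, for genotype in epithelium, 0 in the main test, 28 with DESeq2, 10 with age as a covariate, 1 in mice aged 4.0 to 6.3 months, 1 over regions with a random mouse effect, and 0 to 6 with a mouse left out (6 without PV6 and 6 without WT5). In stroma they were 2 with DESeq2, 2 with the random mouse effect, and 0 to 1 with a mouse left out. For the interaction DESeq2 called 1. Between compartments 9380 passed, 5631 with both plates, 0 on the second plate alone (466 before adjustment), 7952 with no replicate block, and 8875 to 9383 with a mouse left out.

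Small differences that did not pass changed sign under some alternatives (log2). On the second plate alone they were, in epithelium, 0.15 for Sult2b1 and 0.17 for Sts, in stroma -0.25 for Sult1c2, -0.18 for Sult2b1, -0.44 for Sts and -0.086 for Papss1, and between compartments 0.23 for Sult1a1 and 0.28 for Sult2b1. With both plates Sts in stroma was -0.066 and Sult2b1 between compartments 0.094, which was 0.0065 with no gene filter. With age as a covariate Sts in epithelium was 0.088 and Papss2 in stroma 0.011. Papss2 in epithelium was -0.023 and -0.037 with limma on Q3 values at pseudocounts of 1 and 0.1 and -0.071 with the random mouse effect, and in stroma 0.22, 0.26 and 0.092. Sult2b1 in stroma was -0.19 in mice with at least 2 regions and -0.10 in mice aged 4.0 to 6.3 months. With a mouse left out, the epithelial value of Papss2 ranged from -0.23 to 0.38 and its stromal value from -0.19 to 0.059, the stromal value of Sult2b1 from -0.052 to 0.35 and its compartment value from -0.16 to 0.028, and the stromal value of Sts from -0.018 to 0.41. The compartment difference of Papss2 passed in 4 of 14 such fits and with upper-quartile scaling (adjusted p = 0.0136). The causes were not tested. Depth limits PV2, in which 6 of 8 members had 3 counts or fewer in epithelium.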
